A study of Mus musculus with 5 samples.

Results

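The expression of 10 genes that mark T cells and natural killer (NK) cells or carry out their killing was followed across 5 RNA sequencing libraries of the mouse Lewis lung carcinoma (LLC) model. The genes were taken by name from the deposited tables. All 10 were found among the 13979 gene symbols shared by the 3 tables that together hold the libraries. They are the T cell receptor chains CD3D, CD3E and CD3G, the T cell surface proteins CD4 and CD5, the NK receptors NCR1 and KLRK1, and the effectors GZMB, PRF1 and IFNG.

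There were 5 groups with 1 library each. The labels name no agent for Control, and the treatment arms in the methods include saline. BMN was BMN673 (talazoparib), an inhibitor of the DNA repair enzyme PARP. PAZA was a polymer with conjugated azacytidine, an inhibitor of DNA methyltransferases, which also serves as a drug carrier. BMN/PAZA-0.25 and its high-dose counterpart BMN/PAZA-2 were PAZA particles loaded with BMN at 0.25 and 2 mg/kg of BMN and of azacytidine. In the comparisons with BMN/PAZA-0.25, the single agents were also at 0.25 mg/kg. The study's methods describe tumors under the skin of female C57BL/6 mice aged 4 to 6 weeks, given 5 intravenous injections, 1 every 3 days, with tissue collected 1 day after the last. The sample labels instead name LLC cells in culture with 72 h of treatment. How many tumors went into a library is not given in the sources used here. The pan-leukocyte gene PTPRC was at 27.0 to 46.0 and 8 macrophage genes summed to 386 to 555 in the 5 libraries, so RNA of immune cells was present in every library.

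T cells recognize antigen through the T cell receptor, whose signal enters the cell through the CD3 chains. NK cells instead weigh activating receptors such as NKp46 (NCR1) and NKG2D (KLRK1) against inhibitory ones. Both cell types kill by releasing perforin, which opens the target membrane, and granzymes, which start apoptosis inside the target, and both secrete interferon gamma.

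The deposited values have no stated unit and behaved as FPKM, the fragments of a gene per kilobase of its transcript, scaled to the library. Each library was scaled so that the shared symbols sum to 1000000, and this value is called the scaled level. The 10 genes were rare transcripts. Of their 50 scaled levels, 38 were below 3 and 4 were listed at 0, and the highest was 19.2. The values of genes with 1 annotated transcript fell on whole multiples of 1 step per library, 95.2% to 96.7% of them within 0.05 of a whole number, so the fragments behind a value could be estimated. The fit was looser for the 10 genes themselves, where 21 of 35 values of up to 20 fragments lay within 0.1 of a whole number, so their fragment numbers are rounded estimates. If the values are plain FPKM, the steps correspond to 6590000 to 9120000 fragments in the libraries other than BMN/PAZA-0.25. By the longest principal transcript, 22 of the 50 values rest on fewer than 10 fragments. The 95% intervals given here are exact Poisson intervals on those fragments, or exact binomial ones for a ratio of 2 libraries. They cover counting error only and compare libraries, not treatments. Since every group is 1 library, the spread between replicates is unknown and no test was run. In tissue of mixed cells, fewer cells of a type and less RNA per cell cannot be told apart.

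The promoters of the 3 effectors are shown first, because azacytidine acts on the methylation of cytosines that precede a guanine (CpG). Each is the RefSeq sequence of GRCm38.p6 from 250 bases before to 50 bases after an annotated transcript start, 5′ to 3′ on the gene's strand, with every CpG in capitals. GZMB lies at chr14:56262285-56262584 on the minus strand, PRF1 at chr10:61297586-61297885 on the plus strand and IFNG at chr10:118440796-118441095 on the plus strand. The PRF1 window is set on a transcript start downstream of the gene start at 61297751, which lies inside the window.
GZMB: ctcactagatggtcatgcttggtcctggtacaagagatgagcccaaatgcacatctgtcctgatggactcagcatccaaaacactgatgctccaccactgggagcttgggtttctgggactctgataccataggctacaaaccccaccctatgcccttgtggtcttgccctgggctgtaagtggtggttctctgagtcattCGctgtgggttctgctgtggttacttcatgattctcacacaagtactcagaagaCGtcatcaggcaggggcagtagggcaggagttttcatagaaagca
PRF1: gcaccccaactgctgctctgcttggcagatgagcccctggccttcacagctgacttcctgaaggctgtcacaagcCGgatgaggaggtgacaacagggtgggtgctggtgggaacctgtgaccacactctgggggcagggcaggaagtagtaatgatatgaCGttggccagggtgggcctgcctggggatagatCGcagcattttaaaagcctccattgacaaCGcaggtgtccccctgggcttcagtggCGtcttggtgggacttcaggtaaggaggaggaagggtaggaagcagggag
IFNG: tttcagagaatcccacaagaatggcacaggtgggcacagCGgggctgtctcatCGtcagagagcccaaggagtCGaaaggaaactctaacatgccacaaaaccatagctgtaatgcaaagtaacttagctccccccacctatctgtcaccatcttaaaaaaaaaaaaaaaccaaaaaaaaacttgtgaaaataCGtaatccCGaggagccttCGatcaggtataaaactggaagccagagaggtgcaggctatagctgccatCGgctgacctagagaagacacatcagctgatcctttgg

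The GZMB promoter holds 2 CpGs, PRF1 5 and IFNG 7, against a median of 7 in 32851 mouse promoters of this length. Of all these promoters, 23.3% hold no more CpGs than GZMB and 43.6% no more than PRF1. Sequences were matched for 9 of the 10 genes, the exception being CD4. The other 6 hold 0 CpGs in NCR1, 1 in CD3D, 3 in CD5, 4 in CD3G and KLRK1, and 8 in CD3E. The letters TGTGGT, a core bound by Runx factors, occurred on either strand in GZMB, KLRK1, NCR1 and PRF1 and in 16.8% of all promoters. The letters AGGTGT, read by T-box factors, occurred on either strand in CD3D, CD3E, CD3G, CD5 and PRF1 and in 13.7% of all promoters. Methylation was not measured in these libraries, and a match of letters is a description of the window.

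Granzyme B and perforin, the killing pair, were highest in the Control library. GZMB, which encodes granzyme B (chromosome 14, 56258836 to 56262334), had a scaled level of 19.2 in Control, 4.59 in BMN, 8.54 in PAZA, 6.17 in BMN/PAZA-0.25, with 5.84 in BMN/PAZA-2. These levels rest on 97, 28, 44, 30 and 29 fragments. The interval in Control ran from 15.6 to 23.5, and the highest upper bound among the treated libraries was 11.5, in PAZA, so Control did not overlap any of them. Relative to Control, GZMB was 4.18-fold lower in BMN (interval 2.72 to 6.62) and 2.25-fold lower in PAZA (1.56 to 3.29). It was 3.11-fold lower in BMN/PAZA-0.25 (2.05 to 4.86) and 3.29-fold lower in BMN/PAZA-2 (2.16 to 5.19). All 4 ratios share the 1 Control library and are not independent of each other.

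The treated libraries stood closer together. GZMB in BMN/PAZA-0.25 was 1.34 times that in BMN (interval 0.776 to 2.33), 0.722 times that in PAZA (0.438 to 1.17) and 1.06 times that in BMN/PAZA-2 (0.615 to 1.83). Each of these intervals includes a ratio of 1. Between the low and high dose, a GZMB difference was therefore not detectable at this depth.

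PRF1, the perforin gene (chromosome 10, 61297751 to 61304684), followed the same order at its top, with Control first and PAZA next. Its scaled level was 6.47 in Control, 1.17 in BMN, 2.45 in PAZA, 0.906 in BMN/PAZA-0.25, with 1.45 in BMN/PAZA-2, on at most 59, 13, 23, 8 and 13 fragments. The interval in Control, 4.89 to 8.29, lay above that of every treated library, of which PAZA had the highest upper bound at 3.71. PRF1 was 5.51-fold lower in BMN than in Control (2.95 to 10.8) and 2.63-fold lower in PAZA (1.58 to 4.41). The fold was 7.14 in BMN/PAZA-0.25 (3.36 to 17.1) and 4.47 in BMN/PAZA-2 (2.40 to 8.82). Against PAZA, PRF1 in BMN/PAZA-0.25 was 2.71-fold lower (1.17 to 7.01). Against BMN it was 0.771 times the level (0.277 to 2.0), and against BMN/PAZA-2 0.626 times (0.226 to 1.64), intervals that include 1.

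IFNG, which encodes interferon gamma (chromosome 10, 118441046 to 118445894), was near the limit of detection. Its scaled level was 0.244 in Control, 0.599 in BMN, 0.946 in PAZA and 0.501 in BMN/PAZA-0.25, on 1, 3, 4 and 2 fragments, and it was listed at 0 in BMN/PAZA-2. A count of 0 there allows a level of up to 0.734 by a floor of 3 fragments, and the exact interval drawn for it ends at 0.903. The intervals of all 5 libraries overlap, and no order of the libraries can be read for this gene.

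**Figure D1:**
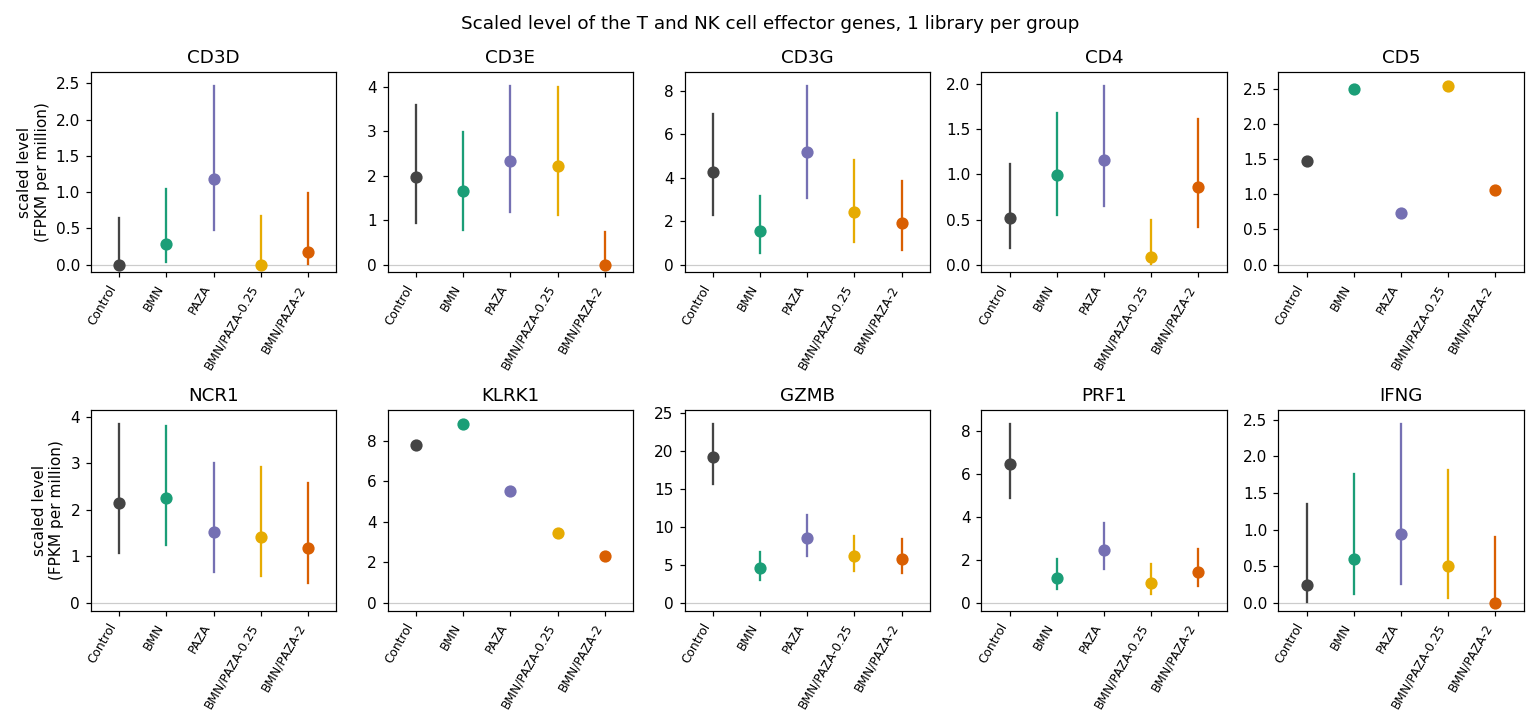
Scaled level (FPKM, with the shared symbols summing to 1000000) of the 10 genes in the 5 libraries, 1 panel per gene, each with its own linear axis. Lines are 95% counting intervals by the longest principal transcript, omitted for CD5 and KLRK1. The Control points of GZMB at 19.2 and PRF1 at 6.47 stand above the intervals of all treated libraries.

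The wider granule list holds granzymes, granule proteins and death ligands, with 16 of its 19 genes among the shared symbols. The genes GZMB to GZMG form a cluster of 6 on chromosome 14 between 56117619 and 56262334, and all 6 were highest in Control. Their Control levels were 15.7 to 32.7, and the highest level of any of them in a treated library was the 8.54 of GZMB in PAZA. Summed over the cluster, the level was 147 in Control, 8.21 in BMN, 30.9 in PAZA, 21.9 in BMN/PAZA-0.25, with 21.5 in BMN/PAZA-2. GZMG was at 32.7 in Control and 4.97 in PAZA and was listed at 0 in BMN. GZMD was at 28.8 in Control and 0.781 in BMN. These granzymes resemble each other in sequence, so the split of reads among them is uncertain. GZMA, on chromosome 13, was at 14 in Control and at 8.20 in BMN/PAZA-2, the next highest, but GZMA lay off a constant between tables, so its level depends on the table.

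The rest of the granule list was mixed. CST7, a protease inhibitor of cytotoxic cells, was at 2.18 in Control, 0.760 in BMN, 1.5 in PAZA, 0.954 in BMN/PAZA-0.25, with 0.931 in BMN/PAZA-2, the order seen for GZMB. STX11, a protein of granule fusion, was also highest in Control, at 8.94 beside 4.53 to 7.22 in the treated libraries. SRGN, the proteoglycan core of secretory granules that many leukocytes make, was at 221 in Control and 362 in PAZA. STXBP2, a protein of granule release, was at 13.8 in Control, 27.2 in BMN/PAZA-0.25, with 26.1 in BMN/PAZA-2. CTSW, a protease of cytotoxic cells, was at 1.46 in Control, 4.81 in PAZA and listed at 0 in BMN/PAZA-2. TNFSF10, a death ligand, lay off a constant as GZMA did, so counts over this list can depend on the table. Over the 16 genes, 6 were at least 2-fold lower and 1 at least 2-fold higher in PAZA than in Control, beside 9.64% and 10.5% of all genes. The counts were 7 and 1 in BMN, beside 6.36% and 11.7%, then 8 and 0 in BMN/PAZA-0.25, beside 7.78% and 10.8%, and 7 and 0 in BMN/PAZA-2, beside 11.1% and 8.52%. The medians on the log2 scale were -0.69, -0.69, -1.04 and -0.86, beside medians over all genes of -0.08, 0.10, -0.03 and -0.21.

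The CD3 chains were low. Each was highest in PAZA, where its interval overlapped that of Control. CD3G (chromosome 9, 44969572 to 44980431) was at 4.27 in Control, 1.53 in BMN, 5.18 in PAZA, 2.43 in BMN/PAZA-0.25, with 1.89 in BMN/PAZA-2. These levels stand for at most 14, 6, 18, 8 and 6 fragments, and fewer if a shorter coding transcript was made. CD3G was thus highest in PAZA, with Control next, and the interval of PAZA (3.08 to 8.22) overlaps those of the other 4 libraries. The ratio of BMN to Control was 0.357 (0.111 to 0.974), an interval that leaves out 1 by the longest transcript and would be wider with fewer fragments. CD3E (chromosome 9, 44998735 to 45009663) was at 1.98 in Control, 1.65 in BMN, 2.32 in PAZA and 2.22 in BMN/PAZA-0.25, on 10, 10, 12 and 11 fragments. These 4 libraries did not differ beyond their intervals.

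In BMN/PAZA-2, CD3E was listed at 0. The level that 3 fragments would give there is 0.592, and the exact interval ends at 0.728, both below the lower bounds of the other 4 libraries, which were 0.934 in Control, 0.774 in BMN, 1.19 in PAZA and 1.11 in BMN/PAZA-0.25. Zeros at genes of this level were not limited to that library. Of 10225 genes at a level of at least 1 in the other 4 libraries, 12 were listed at 0 in BMN/PAZA-2, while the same count in the Control library was 14 of 10213. CD3D (chromosome 9, 44981769 to 44987052) was at 0.287 in BMN, 1.19 in PAZA and 0.176 in BMN/PAZA-2, on at most 2, 7 and 1 fragments, and was listed at 0 in Control and BMN/PAZA-0.25. The zeros allow levels of up to 0.521 and 0.542 by the floor of 3 fragments, with exact intervals that end at 0.641 and 0.667. These limits are by the longest principal transcript and would be higher by a shorter one.

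CD4, the coreceptor of helper T cells (chromosome 6, 124864693 to 124888247), stood out as low in BMN/PAZA-0.25. Its scaled level was 0.515 in Control, 0.992 in BMN, 1.16 in PAZA, 0.0888 in BMN/PAZA-0.25, with 0.861 in BMN/PAZA-2, on 6, 14, 14, 1 and 10 fragments. CD4 in BMN/PAZA-0.25 was 11.2-fold lower than in BMN (interval 1.7 to 473), 13.1-fold lower than in PAZA (2.01 to 558) and 9.70-fold lower than in BMN/PAZA-2 (1.39 to 425). Against Control the fold was 5.80 and its interval, 0.695 to 263, includes 1. Some macrophages and dendritic cells can also express CD4. The macrophage sum was 501 in BMN/PAZA-0.25, within the range of the other libraries.

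CD5, which dampens T cell receptor signaling (chromosome 19, 10718107 to 10739026), had a different order. It was at 1.47 in Control, 2.50 in BMN, 0.735 in PAZA, 2.53 in BMN/PAZA-0.25, with 1.06 in BMN/PAZA-2. BMN and BMN/PAZA-0.25 were thus the highest and PAZA the lowest, 3.45-fold below BMN/PAZA-0.25. CD5 has coding transcripts of several lengths, so no interval is given. The levels stand for 4 to 17 fragments in Control, 8 to 34 in BMN, 2 to 8 in PAZA, 6 to 27 in BMN/PAZA-0.25 and 3 to 12 in BMN/PAZA-2.

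Of 18 further genes of the T cell receptor complex and its signaling, 16 were among the shared symbols. TRAC, the constant region of the receptor's alpha chain, was at 8.53 in Control, 4.12 in BMN, 8.99 in PAZA and 0.339 in BMN/PAZA-0.25, and was listed at 0 in BMN/PAZA-2. LCK, the kinase that phosphorylates the CD3 chains, was at 4.21 in Control, 2.71 in BMN, 4.51 in PAZA and 1.28 in BMN/PAZA-0.25, and was also listed at 0 in BMN/PAZA-2. TRBC2, a beta chain constant region, was at 5.86, 2.76, 5.15, 4.45 and 0.960 in the same order of libraries. CD8A, the coreceptor of cytotoxic T cells, was at 0.990, 0.520, 1.14, 0.465 and 0.144.

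Across these 16 genes the BMN/PAZA-2 library had the most zeros, 5, against 0 in Control and BMN and 1 in PAZA and BMN/PAZA-0.25. Relative to Control, 12 of the 16 were at least 2-fold lower and 0 at least 2-fold higher in BMN/PAZA-2, beside 11.1% and 8.52% of all genes, and the median log2 difference was -1.64 beside -0.21. The counts were 6 and 0 in BMN/PAZA-0.25, beside 7.78% and 10.8%, with a median of -0.93 beside -0.03. They were 7 and 2 in BMN, beside 6.36% and 11.7% (median -0.72 beside 0.10), and 5 and 1 in PAZA, beside 9.64% and 10.5% (median -0.06 beside -0.08). BMN/PAZA-0.25 was at least 2-fold above BMN/PAZA-2 at 9 genes and at least 2-fold below at 1, beside 11.7% and 6.93% of all genes, with a median of 1.28 beside 0.16 over all genes. THY1, also a gene of fibroblasts and endothelium, was at 51.3 to 141 and made up most of the list's summed level.

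**Figure D2:**
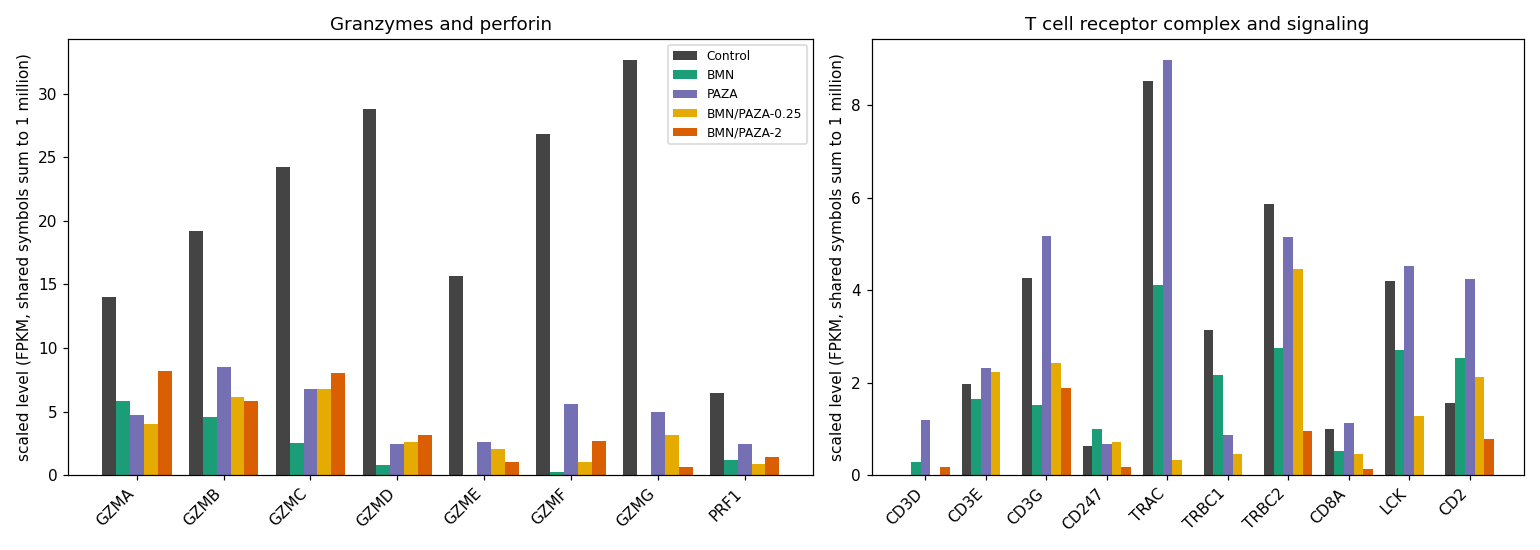
Scaled level (FPKM, with the shared symbols summing to 1000000) of 7 granzymes and perforin on the left and of 10 genes of the T cell receptor complex on the right, as 1 bar per library from 0. The left panel shows Control above every treated library at each gene, and the right panel shows Control and PAZA high at TRAC and LCK and BMN/PAZA-2 listed at 0 at CD3E, TRAC, TRBC1 and LCK.

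Of the NK receptors, NCR1, which encodes NKp46 (chromosome 7, 4337715 to 4345184), varied least among the 10 genes by the ratio of its highest to its lowest level. Its scaled level was 2.15 in Control, 2.25 in BMN, 1.52 in PAZA, 1.41 in BMN/PAZA-0.25, with 1.18 in BMN/PAZA-2, on 11, 14, 8, 7 and 6 fragments. The intervals of all 5 libraries overlap, with BMN at 1.23 to 3.79 and BMN/PAZA-2 at 0.434 to 2.58. In BMN/PAZA-0.25 the ratio to BMN was 0.627 (0.214 to 1.66) and that to BMN/PAZA-2 was 1.19 (0.344 to 4.31).

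KLRK1, which encodes NKG2D (chromosome 6, 129610323 to 129623903), was the most abundant receptor among the 10 genes. It was at 7.77 in Control, 8.81 in BMN, 5.51 in PAZA, 3.43 in BMN/PAZA-0.25, with 2.33 in BMN/PAZA-2. As scaled here the combinations were lowest, BMN/PAZA-0.25 at 0.442 and the high dose at 0.301 of the Control level. The place of BMN/PAZA-0.25 in this order changes with the table, as given below. The number of fragments depends on the transcript and lay between 26 and 94 in Control and between 8 and 27 in BMN/PAZA-2, so no interval is given.

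The KLRK1 value of BMN/PAZA-0.25 depends on the table it is read from. The 5 deposited tables hold 2 groups each, so PAZA and BMN/PAZA-0.25 were deposited in 2 and 3 tables. The values of 1 library differed between tables by 1 constant for most genes, and 9 of the 10 genes lay within 0.5% of every constant. KLRK1 did not. In the table with PAZA, the FPKM listed for PAZA was 1.91 and that for BMN/PAZA-0.25 was 4.83. The other tables, brought to the same scale, give 3.22 for PAZA and 1.91 for BMN/PAZA-0.25. The listed PAZA value thus equals that of BMN/PAZA-0.25 in the other table, with a ratio of 1.0, and the listed BMN/PAZA-0.25 value is 1.5 times the PAZA value.

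The same 2 relations were found elsewhere in that table. Of 13142 genes compared, 182 had a listed PAZA value equal to that of BMN/PAZA-0.25 in the other table, and at 152 of those BMN/PAZA-0.25 was listed at 1.5 times PAZA. KLRK1 was the 1 member among them. In the table with BMN, the KLRK1 value of BMN/PAZA-0.25 was 2.0 times that listed beside BMN/PAZA-2 once the constant was taken off. How these values came about was not tested. On the log2 scale the KLRK1 difference between BMN/PAZA-0.25 and Control was -1.16 as scaled here, -0.20 with the value of the table with BMN and 0.13 with that of the table with PAZA. Between BMN/PAZA-0.25 and PAZA it was -0.67 as scaled here and 1.29 within their own table, so no direction is drawn for KLRK1 in BMN/PAZA-0.25.

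**Figure D3:**
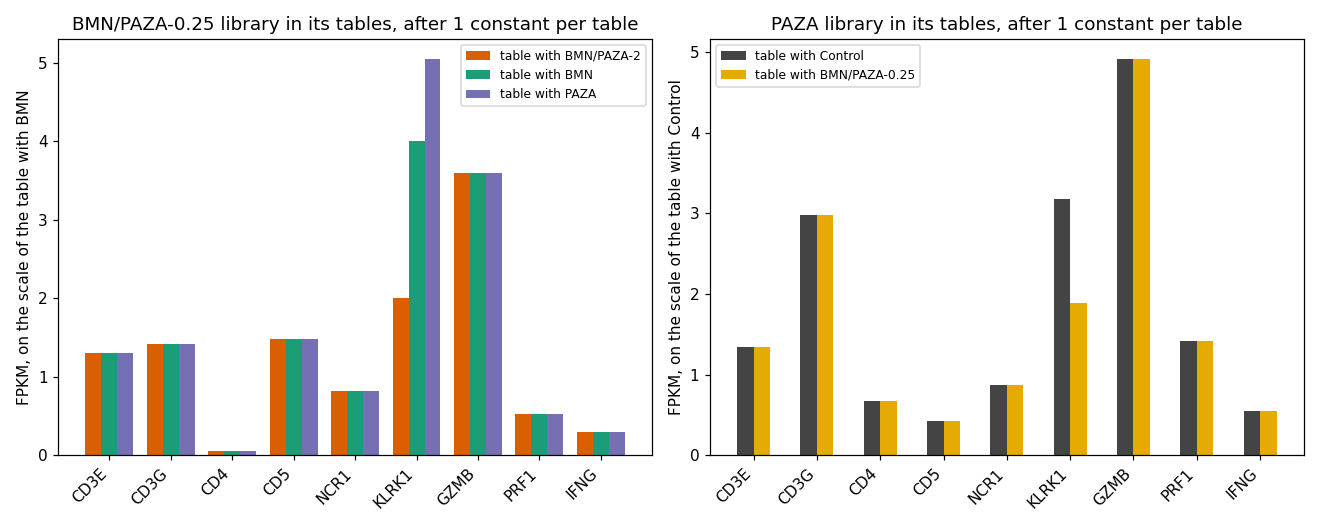
FPKM of 9 of the 10 genes in the BMN/PAZA-0.25 library (left, 3 tables) and the PAZA library (right, 2 tables), after division by 1 constant per table. The bars coincide at every gene shown other than KLRK1, and CD3D is left out.

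Among 23 further NK receptors and adaptors, 21 were among the shared symbols and followed no single order. IL2RB and XCL1 of these lay off a constant between tables, so counts over this list can depend on the table. KLRD1, which encodes CD94, was at 3.27 in Control, 4.27 in BMN, 6.31 in PAZA, 10.5 in BMN/PAZA-0.25, with 3.12 in BMN/PAZA-2. KLRC1, which encodes its inhibitory partner NKG2A, was at 4.55, 1.76, 1.87, 1.01 and 0.494 in the same order. HCST, which encodes DAP10, the adaptor that NKG2D signals through, was at 2.96 in BMN/PAZA-0.25 and 0.784 to 0.944 in BMN, PAZA and BMN/PAZA-2, and was listed at 0 in Control. EOMES, a T-box factor of NK and T cells, was at 21.2, 24.5, 13.6, 18.2 and 15. Relative to Control, 8 genes were at least 2-fold lower and 3 at least 2-fold higher in BMN/PAZA-0.25, beside 7.78% and 10.8% of all genes (median log2 difference -0.34 beside -0.03). The counts were 8 and 2 in BMN/PAZA-2, beside 11.1% and 8.52% (median -0.50 beside -0.21), and 6 and 1 in BMN, beside 6.36% and 11.7% (median -0.73 beside 0.10). In PAZA they were 8 and 2, beside 9.64% and 10.5% (median -0.66 beside -0.08). Of 9 ligands of NKG2D, 4 were among the shared symbols. RAET1D was at 53.6 to 67.6, RAET1E at 23.6 to 29.6, ULBP1 at 40.6 to 59.7 and H60B at 0.604 to 2.95 over the 5 libraries.

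The interferon gamma axis, with 18 of 20 genes among the shared symbols, included receptors, kinases, transcription factors and target chemokines. The receptor chain IFNGR1 was at 14.8 to 21.7 over the libraries and IFNGR2 at 4.06 to 8.14, with Control lowest at each. IRF1, a transcription factor induced by interferon gamma, was at 198 in Control and 79.1 to 94.6 in the treated libraries. CXCL9, a chemokine that draws T cells, was at 80.5 in Control, 17.6 in BMN, 36.8 in PAZA, 10.5 in BMN/PAZA-0.25, with 12.9 in BMN/PAZA-2. IRF1 and CXCL9 were highest in Control, but other targets on the list were not. CXCL10, a related chemokine, was at 28.3 in Control and 34.3 in PAZA, and CIITA, the activator of MHC class II genes, was at 0.532 in Control and 0.561 to 0.757 in the treated libraries. These 4 are among 10 of the 18 genes that lay off a constant between tables, so the level of 1 or more libraries depends on the table. Relative to Control, 5 of the 18 genes were at least 2-fold lower and 1 at least 2-fold higher in BMN/PAZA-0.25, beside 7.78% and 10.8% of all genes (median log2 difference -0.13 beside -0.03). The counts were 4 and 2 in BMN/PAZA-2, beside 11.1% and 8.52% (median -0.41 beside -0.21), and 5 and 2 in BMN, beside 6.36% and 11.7% (median 0.03 beside 0.10). In PAZA they were 3 and 2, beside 9.64% and 10.5% (median -0.27 beside -0.08).

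The 10 genes did not share 1 direction in any of the 7 comparisons made. A 2-fold difference was counted on the scaled level with 0.1 added, and with 1 added most of these counts are smaller, since many levels are below 1. In PAZA against Control, 5 of the 10 were higher and 5 lower, beside 43.6% and 56.4% of all genes. At least 2-fold higher were 3, beside 10.5% of all genes, and at least 2-fold lower 2, beside 9.64%. The 3 higher ones were CD3D, CD4 and IFNG, the first and last of which rest on at most 7 fragments, and the lower ones were GZMB and PRF1. With PAZA from the table with BMN/PAZA-0.25, KLRK1 would join the lower ones, at -1.22 on the log2 scale in place of -0.49. The median log2 difference of the 10 was -0.13, beside -0.08 over all genes. In BMN against Control, 6 were higher and 4 lower, beside 58.7% and 39.3% of all genes, with 2 at least 2-fold higher beside 11.7% of all genes and 3 at least 2-fold lower beside 6.36%, and the median was 0.12 beside 0.10. The 2 higher ones were CD3D, on at most 2 fragments against 0, and IFNG, on 3 against 1, too few for a direction. CD3G, GZMB and PRF1 were the 3 lower ones.

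The combinations were set against Control in the same way. In BMN/PAZA-0.25 against Control, 3 were higher and 6 lower, beside 46.7% and 52.2% of all genes, with 0 at least 2-fold higher beside 10.8% of all genes and 4 at least 2-fold lower beside 7.78%. These 4 were CD4, KLRK1, GZMB and PRF1, of which KLRK1 depends on the table. In BMN/PAZA-2 against Control, 2 were higher and 8 lower, beside 34.7% and 63.2% of all genes, with 1 at least 2-fold higher beside 8.52% and 6 at least 2-fold lower beside 11.1%. The 1 higher was CD3D, on 1 fragment against 0. The 6 were CD3E, CD3G, KLRK1, GZMB, PRF1 and IFNG, the last on 0 fragments against 1, so no direction is drawn for CD3D or IFNG. The medians were -0.68 and -1.41, beside -0.03 and -0.21 over all genes, and the 4 comparisons share the Control library.

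The combination was also set against each single agent. In the low-dose combination against BMN, 4 were higher and 6 lower, beside 39.0% and 60.3% of all genes, with 0 at least 2-fold higher beside 9.54% of all genes and 3 at least 2-fold lower beside 11.9%, namely CD3D, CD4 and KLRK1. CD3D rests on 0 fragments against 2. KLRK1 falls out of these with the low dose of the table with BMN, at -0.38 on the log2 scale in place of -1.33. Against PAZA, 1 was higher and 9 lower, beside 53.8% and 45.5% of all genes, with CD5 at least 2-fold higher beside 9.47% of all genes. CD3D, CD3G, CD4 and PRF1 were at least 2-fold lower beside 7.30%. Here CD3D rests on 0 fragments against at most 7. The 9 lower ones include KLRK1, which was higher in the table that holds both libraries, at 1.29 on the log2 scale in place of -0.67. The medians were -0.28 and -0.73, beside -0.17 and 0.04 over all genes. Comparing the low with the high dose, 7 were higher at the low dose and 3 lower, beside 65.5% and 34.5% of all genes, with 3 at least 2-fold higher beside 11.7% of all genes and 2 at least 2-fold lower beside 6.93%. CD3E, CD5 and IFNG were the higher ones, and CD4 and CD3D the lower. IFNG rests there on 2 fragments against 0 and CD3D on 0 against 1, too few for a direction. The median was 0.29, beside 0.16 over all genes.

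**Figure D4:**
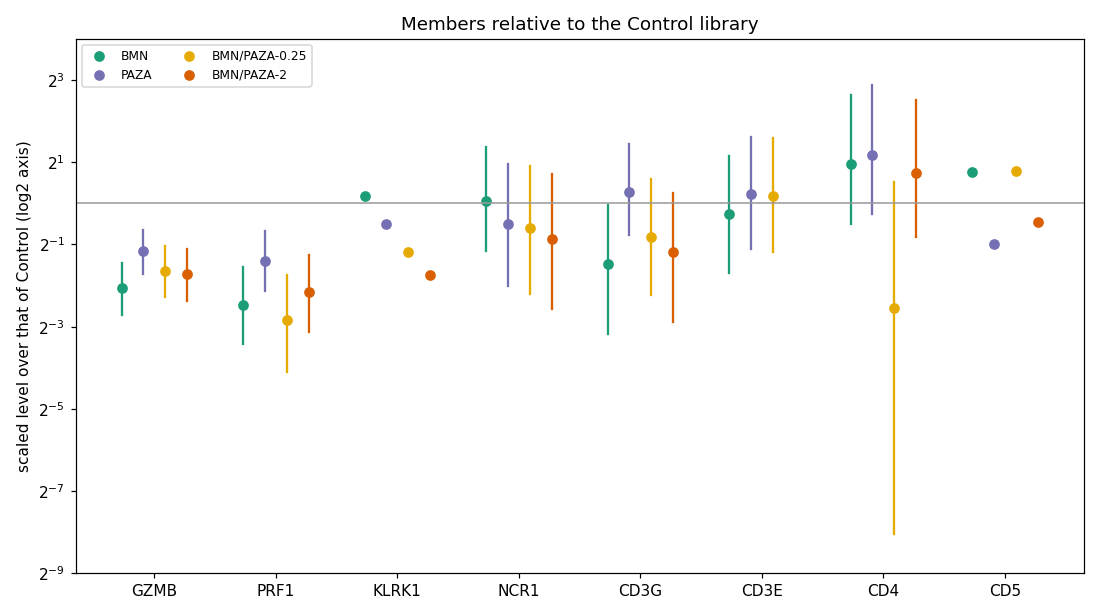
Ratio of the scaled level in each treated library to that in Control, on a log2 axis, for 8 of the 10 genes. Lines are 95% counting intervals by the longest principal transcript, omitted for CD5 and KLRK1. CD3D, IFNG and the CD3E value listed at 0 in BMN/PAZA-2 are not drawn. GZMB and PRF1 lie below 1 with their intervals in all 4 treated libraries, whereas most other intervals cross 1.

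The genes nearest to GZMB in pattern over the 5 libraries, among 11213 with a mean scaled level of at least 1, were ADCK5, GBP4, PTGS2OS, IGTP and WRAP53, with root mean square log2 differences of 0.133 to 0.216. GBP4, an interferon-induced GTPase, was at 18.3 in Control, 3.84 in BMN, 7.82 in PAZA, 4.30 in BMN/PAZA-0.25, with 4.30 in BMN/PAZA-2. Of these 5 genes, GBP4 lay off a constant between tables. IGTP, of a related family, was at 35.5, 13.1, 17.5, 13.1 and 11.7. The genes nearest to the mean of the 3 CD3 chains were NRG1, CD2, STK19, IPO13 and RUSC2, at 0.247 to 0.308. CD2, an adhesion receptor of T and NK cells, was at 1.55, 2.53, 4.24, 2.13 and 0.775 in the same order. With 5 libraries, near patterns are a description only.

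Markers of other cells also differed between the libraries. The summed level of 6 leukocyte genes was 227 in Control, 283 in BMN, 255 in PAZA, 202 in BMN/PAZA-0.25, with 188 in BMN/PAZA-2. The 8 macrophage genes summed to 386 to 555 over the libraries. Of 6 neutrophil genes, 5 were measured, and they summed to 64.6 in BMN and 233 in BMN/PAZA-2. Most of both sums was S100A8, at 31.5 in BMN and 132 in BMN/PAZA-2, and S100A9, at 24.4 and 93.2. RETNLG was listed at 0 in BMN and at 1.18 in BMN/PAZA-2. CSF3R and CXCR2 went the other way, at 3.66 and 5.00 in BMN and 2.64 and 4.55 in BMN/PAZA-2. The 7 skeletal muscle genes summed to 195 in BMN and 220 in BMN/PAZA-2 against 12.7 in Control, 64.0 in PAZA and 11.3 in BMN/PAZA-0.25. The 5 measured of 7 epidermis genes summed to 68.4 in Control, 207 in BMN, 8.45 in PAZA, 2.17 in BMN/PAZA-0.25 and then 12.9 in BMN/PAZA-2. The 7 mast cell genes summed to 101 in BMN and 18.5 to 34.5 elsewhere. The 6 regulatory T cell genes summed to 7.58 in BMN/PAZA-2 and 12.3 to 14.3 elsewhere. IKZF2 was lowest there, at 4.07 beside 6.06 to 7.62, as was TNFRSF18, at 0.561 beside 1.55 to 3.01. FOXP3, CTLA4 and IL2RA were not lowest there. In BMN/PAZA-2 and Control, FOXP3 was at 0.507 and 0.246, CTLA4 at 2.14 and 2.01 and IL2RA at 0.303 and 0.416. TNFRSF4 was listed at 0 in BMN/PAZA-2 and in BMN. The part of these cell types in the levels of the 10 genes was not tested.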

How the data were processed

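The authors mapped reads to GRCm38, with HISAT2 and StringTie named in the submitters' processing notes without versions, and deposited 5 tables, each of 2 groups. These deposited values name no unit and were read as FPKM. Control and PAZA were taken from their shared table, BMN and BMN/PAZA-2 from theirs, and BMN/PAZA-0.25 from its table with BMN/PAZA-2. The tables were normalized separately, so each column was scaled to sum to 1000000 over the 13979 shared symbols. For repeated symbols the row of highest mean was used, and symbols that had been turned into numbers were left out. Differences were log2(scaled level + 0.1), which understates the change of low genes. Fragments were estimated from the step of FPKM times length, over genes with 1 GENCODE M21 transcript of 500 to 4000 bases, and each member's longest principal transcript. The scripts were tested on simulated data. With 1 library per group, nothing was tested. The genes named were all 10 members, genes of the 4 partner lists, and the 5 nearest in pattern. NKG2D ligands and marker lists of other cells were added as background. The members and lists were chosen with earlier results of these data known. The study's gene tables from its gene set enrichment analysis of these samples list CD3E, CD3G and GZMB. RefSeq tables of GRCm38.p6 gave positions and promoters. Alternatives were another pseudocount, none, a filter on low genes, other scalings, summed repeats, other tables and leaving out KLRK1. Scripts ran in Python 3.11.15 with scipy 1.17.1, pandas 2.3.3, numpy 2.4.6 and matplotlib 3.10.9.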

Additional observations from a re-analysis of the deposited data

How the results depend on the processing

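Of 64 checks of the counts of higher members and of members off a constant, 57 stayed within 1.5 times the reported count and 7 moved. In PAZA against Control, 3 members were higher, in place of 5, when the 8 members with a mean level of at least 0.5 were used. In BMN/PAZA-2 against Control, 1 was higher, in place of 2, with no pseudocount and with that filter, which use fewer genes. In BMN/PAZA-0.25 against PAZA, 2 were higher, in place of 1, with the low dose from either other table, with PAZA from the table with the low dose, and within their own table, where KLRK1 turns. The KLRK1 difference between BMN/PAZA-0.25 and Control went from -1.16 to 0.13 with the low dose read from the table with PAZA. That was the 1 reversal in 277 checks of member differences of at least 2-fold. With a pseudocount of 1 in place of 0.1, the members at least 2-fold higher and lower numbered 1 and 2 in place of 3 and 2 in PAZA, 0 and 3 in place of 2 and 3 in BMN, 0 and 2 in place of 0 and 4 in BMN/PAZA-0.25 and 0 and 4 in place of 1 and 6 in BMN/PAZA-2, each against Control. For BMN/PAZA-0.25 they numbered 0 and 1 in place of 0 and 3 against BMN, 1 and 1 in place of 1 and 4 against PAZA, with 1 and 0 in place of 3 and 2 against BMN/PAZA-2. A wider tolerance of 2% for the constants, chosen after seeing the data, again put 1 member off them. GZMB against Control ranged on the log2 scale over all settings from -2.13 to -1.85 in BMN, -1.17 to -1.07 in PAZA, -1.65 to -1.49 in BMN/PAZA-0.25 and -1.72 to -1.44 in BMN/PAZA-2, and PRF1 from -2.46 to -1.78, -1.40 to -1.11, -2.84 to -1.97 and -2.16 to -1.61. No paired analysis was possible because each group has 1 library. Few fragments limit IFNG, CD3D and CD4, and nothing here measures the spread between tumors of 1 group.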
